A study of Mus musculus with 8 samples.

Results

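Mutations or variants of Grn, Vcp, Ubqln2, Optn, Tbk1, Chmp2b, Tmem106b, Sod1 and Vapb cause, or change the risk of, amyotrophic lateral sclerosis (ALS) and frontotemporal dementia (FTD) in people, and their products handle proteins and membranes that a cell has to sort, break down or move. The mRNA of these 9 genes was followed in the cortex of mice that express a mislocalized form of TDP-43, the RNA-binding protein found in the inclusions of most patients with either disease. Members were found by gene symbol in the authors' results table and joined by transcript identifier to the table of normalized values. All 9 were found, among 10588 genes tested and 28662 transcripts in the whole table, and all 9 reached 10 RPM (a read rate scaled to the total of the column) in every mouse.

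Bigenic mice (genotype Camk2a-tTa / deltaNLS-hTDP-43, C57BL/6) carried a tetracycline transactivator under the Camk2a promoter, which is active mainly in excitatory neurons of the forebrain, and a human TDP-43 whose nuclear localization signal was disabled. Control mice were nontransgenic, of the same strain and on the same diet. Both groups received doxycycline, which keeps the transgene off, until 28 days of age, and RNA was taken 10 days later. Poly(A)+ RNA of the right cortex was sequenced from 4 mice of each group, 3 of them male. Columns of the deposited table name the group of a mouse but not the replicate number of its sample, so single mice are given by column order within their group.

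The question asked of these genes is whether cytoplasmic TDP-43 is accompanied by a change in other genes of the same diseases. In 3 of the 9, mRNA differed between the groups: Ubqln2 fell, Vapb fell and Optn rose. Grn and Vcp differed at an unadjusted p below 0.05 but not after adjustment over all genes tested, and Tbk1, Chmp2b, Tmem106b and Sod1 did not pass either. Differential expression was common in these mice, since 35.9% of all genes tested were called (20.5% higher and 15.4% lower in bigenic mice), and 3 of 9 is close to that background. The median log2(fold change) was -0.21 over the 9 genes and 0.03 over all genes tested. The median of the 9 was -0.059 without the second bigenic column and -0.085 without the fourth, so its size depended on single mice.

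Ubiquilins carry ubiquitin-tagged proteins to the proteasome, and the ATPase VCP (p97) pulls tagged proteins out of membranes and complexes. Optineurin is a receptor that links tagged cargo to the autophagosome and is phosphorylated by the kinase TBK1. CHMP2B is a subunit of ESCRT-III, the machinery that pinches vesicles into the endosome. Progranulin, the product of Grn, is secreted and also delivered to the lysosome, where TMEM106B resides in the membrane. VAPB anchors other proteins to the endoplasmic reticulum at contact sites, and SOD1 is the copper and zinc enzyme that removes superoxide.

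In the mm9 build, Grn lies at chr11:102291629-102298123 (plus strand), Vcp at chr4:42992835-43013379 (minus), Ubqln2 at chrX:149932775-149936080 (plus) and Optn at chr2:4941688-4985097 (minus). Tbk1 lies at chr10:120983511-121023850 (minus), Chmp2b at chr16:65539378-65562942 (minus), Tmem106b at chr6:13019759-13039269 (plus), Sod1 at chr16:90220987-90226567 (plus) and Vapb at chr2:173563012-173609837 (plus). Ubqln2 consists of 1 exon, and the longest annotated transcripts of the others have between 5 (Sod1) and 21 (Tbk1) exons. The deposited values rest on reads that map to 1 place. Of the 50-base windows in the exons, 52.5% were unique in the genome for Vcp, 79.3% for Sod1 and 97.9% for Optn, and at least 99.9% for the others. The values of Vcp and Sod1 therefore come from part of the transcript. Vcp and Optn overlap exons of 1700022I11Rik and 4930551O13Rik on the opposite strand, and the sources used here do not state whether reads were counted by strand, so reads of such pairs could not be told apart.

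TDP-43 is known to bind runs of UG in RNA, which appear as TG in the gene. Uninterrupted TG runs of at least 12 bases on the strand that reads like the RNA were counted in each gene, exons and introns together, to show which of these transcripts carry the letters that TDP-43 prefers. Vapb held 22, Tbk1 6, Optn 4, Chmp2b 3, Grn 2 and Tmem106b 1, and none was found in Sod1, Ubqln2 or Vcp. Such a run is not particular to these genes, because 73.7% of 10161 genes tested with 1 gene model hold one and 7.28% hold one in an exon. Grn carries its exonic run in the 3' UTR. Per kb of gene, Vapb had 0.47 runs and Grn 0.31, beside a median of 0.0771 over all those genes. A run describes the sequence and is no evidence that TDP-43 was bound in these mice. Shown here are the Grn run of the 3' UTR and 1 intronic run each of Grn, Optn and Vapb, with the run in capitals, 5' to 3' on the strand of the gene.
Grn 3' UTR, run at chr11:102298067-102298078: gagcttgctTGTGTGTGTGTGcgcgtgtgc
Grn intron, run at chr11:102294696-102294713: ttggggTGTGTGTGTGTGTGTGTGcttaaa
Optn intron, run at chr2:4969038-4969053: ccaaataTGTGTGTGTGTGTGTGagagaga
Vapb intron, run at chr2:173589332-173589347: gtctgcgTGTGTGTGTGTGTGTGtctgagt
The other Vapb runs all lie between positions 173595262 and 173595993 of chromosome 2, within an intron. Of the 3 genes that changed, Vapb and Optn hold intronic runs and Ubqln2, which has no intron, holds none.

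Levels are given as normalized counts, the whole numbers that were deposited, with column totals of 20.1 M to 22.0 M. From the spacing of these whole numbers, 1 read was estimated to be worth 0.648 to 2.07 normalized counts, and between 10.6 M and 31.9 M reads per mouse lay on genes. The second bigenic column had the lowest estimated depth, and on the log2 scale it was the bigenic mouse farthest from the median of its group in 9 of 9 members, as it was in 66.4% of all genes tested. The 9 genes are therefore given with and without that mouse. Because it was picked from these same values, a fall in SD without it was built in. Adjusted p-values without it add no separate support. Counting error alone amounted to a coefficient of variation of 1.07% to 7.07% for a member in 1 mouse. The SD among bigenic mice with and without the second column was 898 and 148 normalized counts for Ubqln2, 234 and 42.6 for Optn, 1113 and 94.8 for Tmem106b and 604 and 99.9 for Sod1. Endogenous Tardbp was lower in bigenic mice (5180 ± 249 against 6538 ± 420 normalized counts, SD, n = 4 each, with a log2(fold change) of -0.33 and an adjusted p of 0.006). Whether reads of the human transgene were counted there was not tested. Markers of cell types moved with the group as well. Microglia markers were lower in 6 of 13 tested and higher in 0, with 4 to 10 lower when each mouse was left out in turn (10 without the first bigenic column) and a summed level of 6743 to 9094 normalized counts in bigenic and 9046 to 10692 in nontransgenic mice. Astrocyte markers were lower in 4 of 12 (3 to 5 with each mouse left out). Neuron markers were lower in 7 and higher in 3 of 17, but lower in 3 or 4 when any mouse other than the second bigenic column was left out, and higher in 1 without the first nontransgenic column and without the second nontransgenic column. Of the oligodendrocyte markers 1 of 12 was higher and of the endothelial markers 1 of 11 was lower, and each count went to 0 in some fits that left out a mouse, such as the one without the first bigenic column. Choroid plexus markers were higher in 5 of 6 tested, but in 1 where 10 RPM was required of every mouse, since the other called markers passed the filter on low values only through bigenic mice. They summed to 14275 to 29482 against 6591 to 8221, with Ttr at 13603 ± 4959 against 724 ± 340. The other 10 of the 16 choroid plexus markers did not pass the filter on low values, and 2 were called higher without the first bigenic column. No marker tested was at 0 in any mouse. The part of these markers in the differences of the 9 genes was not tested, and in bulk cortex fewer cells of a type and less RNA per cell cannot be told apart.

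Per kb of the longest annotated transcript, Sod1 was the most abundant of the 9 in nontransgenic cortex, at 2482 ± 235 normalized counts per kb (SD, n = 4), followed by Ubqln2 at 1878 ± 207. Chmp2b stood at 1009 ± 72.9 and Tmem106b at 869 ± 83.9, and the values of these neighbours overlapped between mice. Tbk1 (522 ± 23.7), Vapb (473 ± 14.3) and Grn (269 ± 19.4) came next. Vcp (208 ± 12.7) and Optn (188 ± 7.13) were lowest and overlapped, and no other neighbours in this order did. Lengths were not reduced to the unique windows, which lowers Vcp (52.5% unique) and Sod1 (79.3%) against the others, so the place of Vcp and its overlap with Optn are not settled by this order. In bigenic cortex Optn stood at 322 ± 89.7 and Vcp at 165 ± 34.9 normalized counts per kb.

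**Figure D1:**
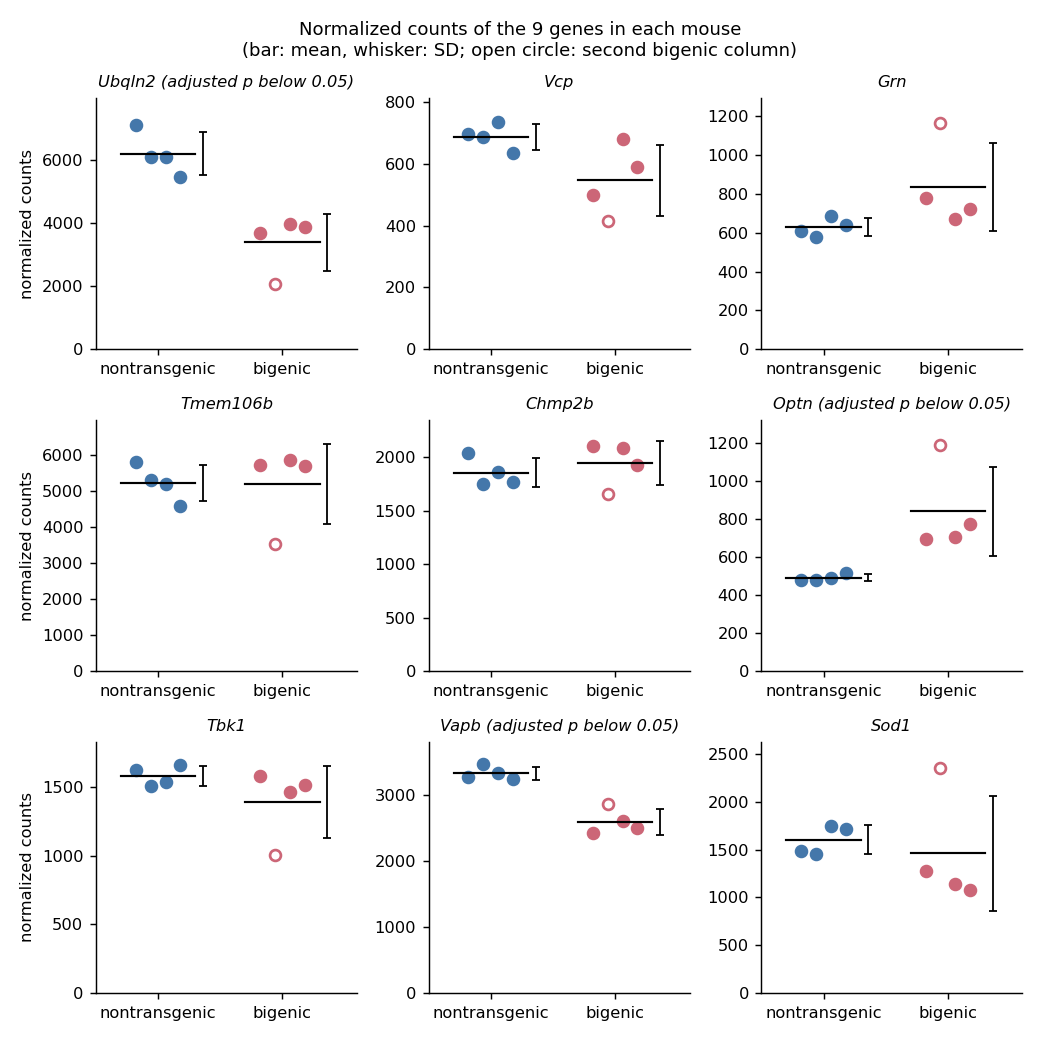
Normalized counts (vertical axis) of the 9 genes in each of 4 nontransgenic mice (blue) and 4 bigenic mice (red), with the group mean as a bar, the SD as a whisker and the second bigenic column as an open circle. The groups do not overlap for Ubqln2, Optn and Vapb, and the open circle is the lowest or the highest bigenic point in every panel.

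Ubqln2 showed the largest difference of the 9. Its normalized counts were 3677, 2058, 3967 and 3871 in bigenic and 7132, 6116, 6110 and 5478 in nontransgenic mice. Every bigenic mouse was below every nontransgenic mouse. The mean was 3393 ± 898 in bigenic and 6209 ± 684 in nontransgenic mice (SD, n = 4 each), which gave a log2(fold change) of -0.91 (SE 0.19, 95% interval -1.35 to -0.48, adjusted p of 0.006), a level that was 0.531 of that in controls. Leaving out the second bigenic column gave -0.69 (interval -0.87 to -0.50, adjusted p of 9.6e-05), and the groups were still apart. Groups did not overlap for 3 of the 9 genes, beside 39% of all genes tested.

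Of the relatives of Ubqln2, Ubqln4 rose and Ubqln1 did not pass the test. Ubqln1, which is also a shuttle to the proteasome, stood at 4256, 3170, 4378 and 4212 normalized counts in bigenic and 5163, 4781, 5176 and 4497 in nontransgenic mice. All bigenic mice were below all nontransgenic mice. Its log2(fold change) was -0.30 (SE 0.11, adjusted p of 0.055). It passed in 2 of 8 fits that left out a mouse, among them the fit without the second bigenic column (adjusted p of 0.031). Ubqln4 went from 3009, 2985, 3079 and 2798 in nontransgenic to 3722, 5609, 3899 and 3913 in bigenic mice, with a log2(fold change) of 0.51 (SE 0.12, adjusted p of 0.011). Within each mouse, the ratio of Ubqln2 to Ubqln1 was 0.864, 0.649, 0.906 and 0.919 in bigenic and 1.38, 1.28, 1.18 and 1.22 in nontransgenic mice. A ratio within a mouse does not depend on how its library was scaled. All bigenic ratios were below all nontransgenic ratios, a difference of -0.61 on the log2 scale. These are ratios of normalized counts, not divided by length, and do not say which of the pair was the more abundant. The ratio to Ubqln4 was 0.988, 0.367, 1.02 and 0.989 against 2.37, 2.05, 1.98 and 1.96, a log2 difference of -1.42. For both ratios the exact two-sided permutation test over 70 arrangements gave p = 0.0286, the smallest it can give with 4 against 4 mice, and 0.1 after adjustment over the 7 pairs compared, so neither passes 0.05. These differences were -0.49 and -1.06 without the second bigenic column.

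Of 14 ubiquilins and other ubiquitin shuttle factors tested (of 18 listed, without Ubqln2), 6 rose and 0 fell (median log2(fold change) 0.22). Leaving out each mouse in turn gave 4 to 6 higher and 0 to 1 lower. The largest rises were in Bat3, a chaperone for tail-anchored and misfolded membrane proteins also called Bag6, with a log2(fold change) of 0.68 (adjusted p of 7.7e-04), in Ubqln4 and in Sgta, a cochaperone that works with Bat3 (0.47, adjusted p of 0.001). The count was 6 higher and 1 lower (Ubqln1) when the second bigenic column was left out.

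Vcp stood at 500, 414, 682 and 592 normalized counts in bigenic and 697, 687, 737 and 635 in nontransgenic mice. The third bigenic mouse lay within the nontransgenic range and the other three lay below it. Means were 547 ± 116 and 689 ± 42.0 (SD, n = 4 each), with a log2(fold change) of -0.36 (interval -0.67 to -0.04, adjusted p of 0.075). Without the third bigenic column it passed (log2(fold change) of -0.47, adjusted p of 0.021) and without the second it was -0.23 (adjusted p of 0.089). These values rest on the 52.5% of Vcp windows that are unique.

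VCP acts through cofactors that choose its substrates. Among 30 cofactors and related ATPases tested (of 34 listed), 9 rose and 1 fell, and the median log2(fold change) was 0.13, with 9 to 11 higher and 1 to 2 lower when each mouse was left out in turn. Vcpip1, a deubiquitinase that binds VCP, rose from 2801 ± 152 to 5252 ± 242 normalized counts (log2(fold change) of 0.91, SE 0.07, adjusted p of 3.5e-05). Ubxn1, an adaptor with a UBX domain, rose by 0.88 on the log2 scale (adjusted p of 0.011), and Nploc4, which with Ufd1 forms the adaptor for unfolding ubiquitin chains, rose by 0.58 (adjusted p of 2.8e-04). Ngly1, which strips glycans from proteins taken out of the endoplasmic reticulum, fell by 0.55 (adjusted p of 0.002). Nsf, another ATPase of the same family that acts in membrane fusion, stood at 17819 ± 583 and 18834 ± 973, with a log2(fold change) of -0.08 (adjusted p of 0.37). The ratio of Vcp to Nsf differed by -0.28 on the log2 scale and overlapped between groups (exact permutation p = 0.114, adjusted 0.2).

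**Figure D2:**
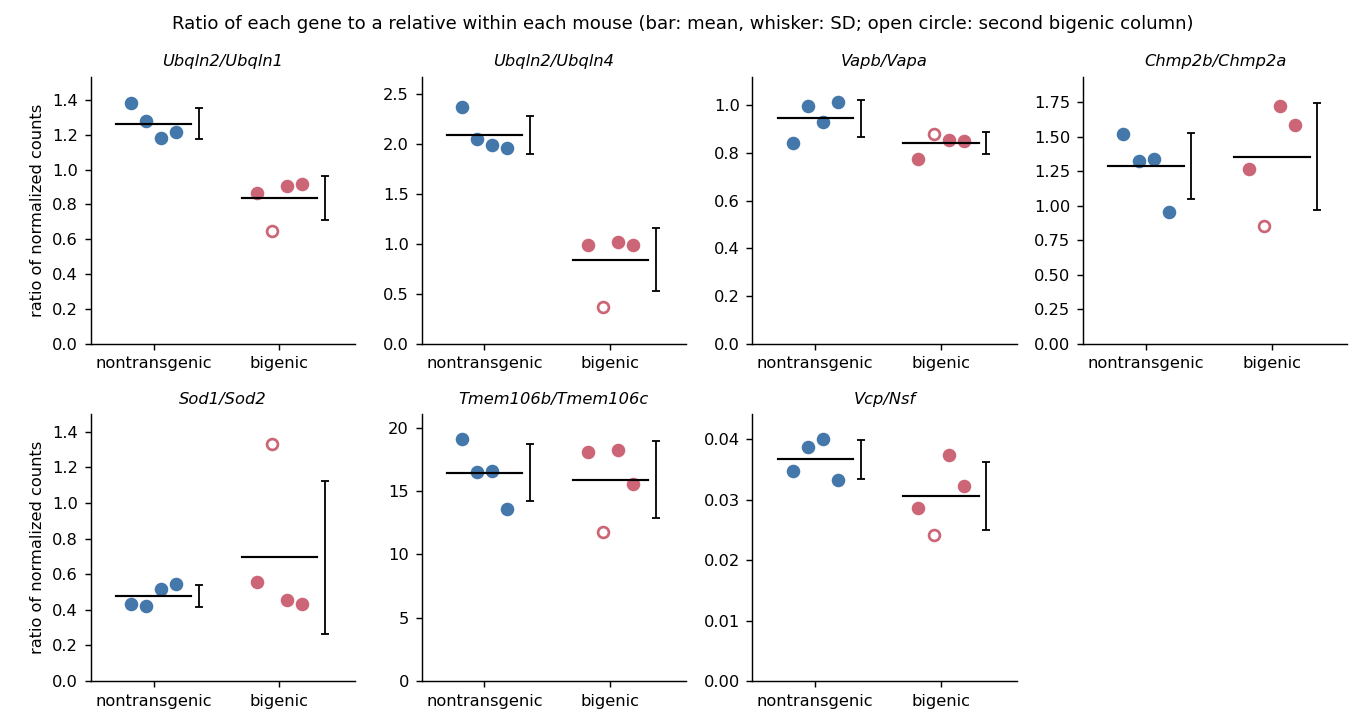
Ratio of the normalized counts of each gene to those of a relative within each mouse (vertical axis), for 4 nontransgenic mice (blue) and 4 bigenic mice (red), with mean as a bar, SD as a whisker and the second bigenic column as an open circle. The groups are apart for Ubqln2/Ubqln1 and Ubqln2/Ubqln4 and overlap for the other 5 pairs.

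Optn was the member that rose. It stood at 695, 1189, 707 and 774 normalized counts in bigenic and 482, 478, 488 and 519 in nontransgenic mice. The 4 nontransgenic mice lay within a narrow band and all bigenic mice were above it, the second column most of all. Means were 841 ± 234 and 492 ± 18.6 (SD, n = 4 each), with a log2(fold change) of 0.74 (SE 0.16, interval 0.39 to 1.09, adjusted p of 0.006), or 1.67-fold. With that column left out, the bigenic mean was 725 ± 42.6 and the log2(fold change) was 0.56 (interval 0.40 to 0.72, adjusted p of 1.3e-04). By pattern over the 8 mice, the genes most like Optn were Adcy3 (Pearson r of 0.998 on log2 values), Dopey2 (0.998) and Rcc2 (0.997). These correlations describe 8 points from 2 groups that share their libraries.

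Tbk1, whose product activates optineurin, stood at 1583, 1007, 1463 and 1511 normalized counts in bigenic and 1625, 1507, 1538 and 1660 in nontransgenic mice. The first bigenic mouse and the fourth lay within the nontransgenic range, the third just below it and the second well below. The log2(fold change) was -0.21 (interval -0.51 to 0.09, adjusted p of 0.25), and -0.06 (interval -0.20 to 0.08) without the second bigenic column. A fall of Tbk1 by more than 0.51 on this scale lies outside the interval of all 8 mice.

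Of 29 partners of optineurin and TBK1 and other autophagy receptors tested (of 34 listed), 6 rose and 2 fell (median log2(fold change) 0.02). The range with each mouse left out was 5 to 8 higher and 1 to 4 lower, with 4 lower without the second bigenic column. Calcoco1, an autophagy receptor and coactivator, rose from 1048 ± 111 to 2085 ± 775 normalized counts (log2(fold change) of 0.93, SE 0.20, adjusted p of 0.006). Tnip1, a ubiquitin-binding regulator of inflammatory signalling, rose by 0.82 (adjusted p of 0.008) and Fbxo2, a neuronal F-box protein that recognises glycans, by 0.70 (adjusted p of 0.002). Cyld, a deubiquitinase that binds optineurin and is itself an ALS and FTD gene, fell from 5609 ± 419 to 3428 ± 290 (log2(fold change) of -0.71, SE 0.09, adjusted p of 3.0e-04). Rab8b fell by 0.50 (adjusted p of 0.017), a call that was lost in 1 of the 8 fits that left out a mouse. Sqstm1 (p62), the best known receptor of this class and also a disease gene, stood at 7616 ± 1412 in bigenic and 6674 ± 223 in nontransgenic mice (log2(fold change) of 0.17, adjusted p of 0.26). It lies outside the rule for named genes and was picked after its value was seen.

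Grn stood at 778, 1168, 670 and 723 normalized counts in bigenic and 611, 578, 685 and 640 in nontransgenic mice. The third bigenic mouse lay within the nontransgenic range, and the second was the highest of all. Means were 835 ± 226.5 and 628.5 ± 45.4 (SD, n = 4 each), with a log2(fold change) of 0.38 (interval 0.02 to 0.73, adjusted p of 0.088). Without the second bigenic column it was 0.20 (interval 0.02 to 0.38, adjusted p of 0.063), and without the third it was 0.47 and passed (adjusted p of 0.048). Microglia express Grn strongly, and 6 of 13 microglia markers were called lower in bigenic mice. Their part in the value of Grn was not tested.

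Tmem106b stood at 5709, 3534, 5864 and 5692 normalized counts in bigenic and 5813, 5294, 5180 and 4586 in nontransgenic mice. The second bigenic mouse was the lowest of the 8, and the other 3 lay at the upper end of the nontransgenic range or just above it. The log2(fold change) was -0.03 (interval -0.38 to 0.32, adjusted p of 0.9). It was 0.15 (interval -0.02 to 0.31, adjusted p of 0.14) without the second bigenic column, so its sign turned on that mouse. Its relative Tmem106c stood at 325 ± 27.9 and 318 ± 14.2 (log2(fold change) of 0.03, adjusted p of 0.81), and the ratio of the pair differed by -0.06 on the log2 scale (exact permutation p = 0.743, adjusted 0.857).

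Of 15 lysosomal partners of progranulin and TMEM106B tested (of 25 listed), 4 rose and 3 fell (median log2(fold change) -0.07). These counts were 2 to 4 and 0 to 4 with each mouse left out, with no gene lower without the first or without the third nontransgenic column. Ctsd, the lysosomal protease cathepsin D, rose from 5859 ± 327 to 9911 ± 418 normalized counts, by 0.76 on the log2 scale (SE 0.07, adjusted p of 6.7e-05). Lrp1, an endocytic receptor, rose by 0.46 (adjusted p of 0.025). Psap (prosaposin, which travels to the lysosome with progranulin) fell by 0.35 (adjusted p of 0.024), Sort1 (sortilin, the receptor that takes up progranulin) fell by 0.30 (adjusted p of 0.016) and Atp6ap1, an accessory subunit of the proton pump, fell by 0.22 (adjusted p of 0.048). The calls of Lrp1, Psap, Sort1 and Atp6ap1 were each lost in 2 or more of the 8 fits that left out a mouse, and that of Ctsd in none.

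Chmp2b stood at 2103, 1657, 2084 and 1927 normalized counts in bigenic and 2041, 1747, 1864 and 1768 in nontransgenic mice, so that the groups overlapped throughout. Means were 1943 ± 206 and 1855 ± 134 (SD, n = 4 each), with a log2(fold change) of 0.06 (interval -0.15 to 0.28, adjusted p of 0.63). Without the second bigenic column it was 0.14 (interval -0.02 to 0.29, adjusted p of 0.14). A rise by more than 0.29 or a fall by more than 0.15 lies outside both intervals. Its relative Chmp2a, at 1665, 1950, 1208 and 1218 against 1342, 1317, 1391 and 1859, gave a log2(fold change) of 0.02 (adjusted p of 0.95), and the ratio of the pair differed by 0.05 (exact permutation p = 0.857).

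Of 33 genes tested from a list drawn up for other ESCRT subunits and associated proteins (of 35 listed), 8 rose and 2 fell (median log2(fold change) 0.08), or 4 to 10 and 1 to 4 with each mouse left out. Those that rose include Uba1 (0.41, adjusted p of 0.006), the ubiquitin-activating enzyme, which is no ESCRT subunit. It was picked after its value was seen. Chmp6, an early subunit of ESCRT-III, rose by 0.70 on the log2 scale (adjusted p of 0.034), Vps37d of ESCRT-I by 0.56 (adjusted p of 0.03) and Hgs, which collects ubiquitin-tagged cargo for ESCRT-0, by 0.47 (adjusted p of 0.002). Chmp5 fell by 0.49 (adjusted p of 0.002) and Vta1, a cofactor of the ATPase that takes the complex apart, by 0.44 (adjusted p of 0.037). Hgs and Chmp5 kept their calls in all 8 fits that left out a mouse, whereas Chmp6, Vps37d and Vta1 lost theirs in at least 4.

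Vapb stood at 2416, 2868, 2599 and 2498 normalized counts in bigenic and 3277, 3466, 3326 and 3234 in nontransgenic mice. All 4 bigenic mice were below all 4 nontransgenic mice, and here the second bigenic column was the one nearest to the controls. Means were 2595 ± 197 and 3326 ± 101 (SD, n = 4 each), with a log2(fold change) of -0.36 (SE 0.07, interval -0.53 to -0.19, adjusted p of 0.005), a fall of Vapb to 0.779 of its level in controls. Without the second bigenic column it was -0.41 (interval -0.54 to -0.28, adjusted p of 2.5e-04). Its relative Vapa, at 3123, 3259, 3037 and 2938 against 3896, 3483, 3576 and 3194, had a log2(fold change) of -0.19 (interval -0.37 to -0.02, adjusted p of 0.082). Without the second bigenic column Vapa passed (-0.22, adjusted p of 0.029) and its groups did not overlap. The Vapb/Vapa ratio differed by -0.17 on the log2 scale (exact permutation p = 0.114, adjusted 0.2), and a difference in the response of the pair was therefore not shown. The genes with the pattern most like that of Vapb over the 8 mice were Nat14 (Pearson r of 0.981, log2(fold change) of -0.88), Camk2a (0.981, -0.88) and Dci (0.98, -0.28), again as a description of 8 points.

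Of 33 VAP relatives and partners tested (of 34 listed), many of which move lipids between membranes, 10 rose and 1 fell (median log2(fold change) 0.16), or 7 to 11 and 1 to 3 with each mouse left out. Kif5b, a kinesin heavy chain, rose from 11130 ± 270 to 19527 ± 916 normalized counts (log2(fold change) of 0.81, SE 0.06, adjusted p of 3.5e-05). Its neuronal relative Kif5a, an ALS gene, rose by 0.67 (adjusted p of 0.008), and Fam82a2, a mitochondrial tether that binds VAP proteins and is also called PTPIP51, by 0.68 (adjusted p of 0.021, lost in 2 of 8 fits that left out a mouse). Vps13a, a lipid transfer protein that VAPB recruits, fell by 0.37 (adjusted p of 0.007).

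Sod1 stood at 1273, 2360, 1138 and 1078 normalized counts in bigenic and 1490, 1456, 1746 and 1722 in nontransgenic mice. The second bigenic mouse was the highest of the 8 and the other 3 bigenic mice were below all nontransgenic mice. With all mice the log2(fold change) was -0.21 (interval -0.69 to 0.28, adjusted p of 0.49). Without the second bigenic column the bigenic mean was 1163 ± 99.9 against 1603.5 ± 152 and the log2(fold change) was -0.46 (interval -0.66 to -0.27, adjusted p of 0.002), so whether Sod1 was called rested on 1 mouse. Without that mouse 4 of the 9 members were called, 1 higher and 3 lower, beside 45.6% of all genes tested (25.3% higher and 20.3% lower), and 4 did not overlap between groups, beside 48.4%.

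Sod2, the mitochondrial superoxide dismutase, fell from 3370 ± 143 to 2263 ± 344 normalized counts (log2(fold change) of -0.59, SE 0.11, adjusted p of 0.003), with 74.5% of its exon windows unique. The Sod1/Sod2 ratio was 0.557, 1.33, 0.453 and 0.435 in bigenic and 0.431, 0.42, 0.515 and 0.545 in nontransgenic mice and did not separate the groups (exact permutation p = 0.4, adjusted 0.56). Of 15 genes of superoxide and copper handling tested (of 18 listed), 2 rose and 2 fell (median log2(fold change) -0.0045), or 1 to 3 and 2 to 4 with each mouse left out. Prnp, the gene of the copper-binding prion protein, rose from 13652 ± 1068 to 41039 ± 11477 normalized counts (log2(fold change) of 1.54, SE 0.19, adjusted p of 3.1e-04). Prion gene sequence is used in some transgene vectors, and whether reads of the transgene were counted under Prnp was not tested. Atp7a, a copper pump, rose by 0.33 on the log2 scale (adjusted p of 0.045, kept in 2 of 8 fits that left out a mouse). Cox17, the copper chaperone of cytochrome oxidase, fell by 0.73 (adjusted p of 0.002).

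**Figure D3:**
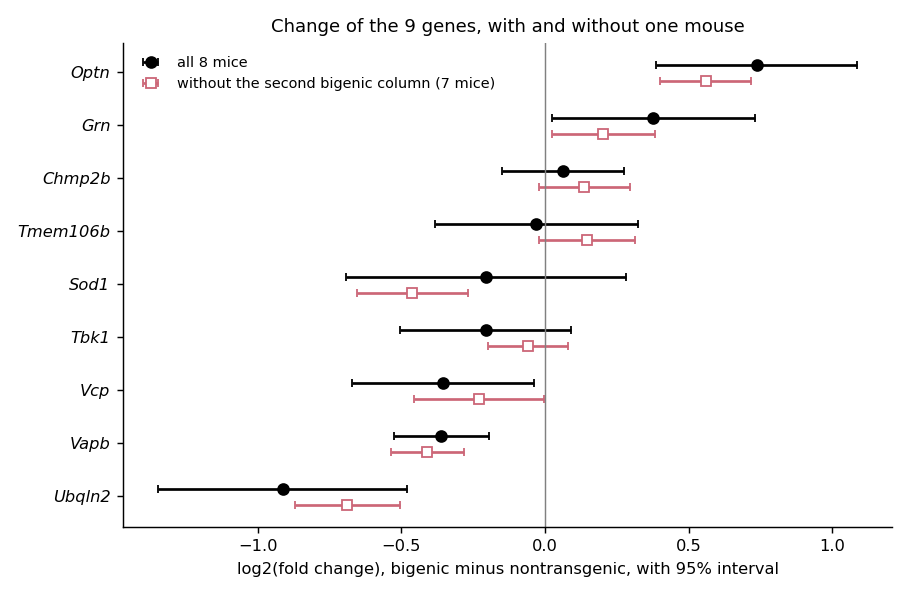
Log2(fold change) of the 9 genes, bigenic minus nontransgenic (horizontal axis), with 95% intervals, from all 8 mice (black circles) and from the 7 mice without the second bigenic column (open squares). Optn lies above 0 and Vapb and Ubqln2 below 0 in both, the interval of Sod1 excludes 0 only without that mouse, and Tmem106b changes sign.

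Of 28 further ALS and FTD genes of protein or membrane turnover tested (of 29 listed), 11 rose and 3 fell (median log2(fold change) 0.08), or 7 to 11 and 2 to 5 with each mouse left out. Kif5a rose as given above, Dctn1, a dynactin subunit, rose by 0.64 (adjusted p of 0.021, lost in 3 of 8 fits that left out a mouse) and Vac14, a scaffold for the lipid kinase complex that also holds Fig4, rose by 0.61 (adjusted p of 0.001). Cyld fell as given above, and Tia1, a stress granule protein, fell by 0.42 (adjusted p of 0.006), followed by Sort1. The mouse ortholog of C9orf72, 3110043O21Rik, which was picked after its value was seen, rose from 721 ± 43.3 to 1088 ± 113 normalized counts (log2(fold change) of 0.59, adjusted p of 0.001).

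Counted once each, the genes of these 8 lists came to 191 tested, of which 54 (28.3%) were higher and 12 (6.28%) lower in bigenic mice, beside 20.5% and 15.4% of all genes tested. The 2 called lower among the 9 members, Ubqln2 and Vapb, thus stood among partners that were more often called higher. Whether this difference in direction exceeds what lists of this kind show was not tested. Without the second bigenic column the partners called lower numbered 24, and without the first nontransgenic column 7.

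**Figure D4:**
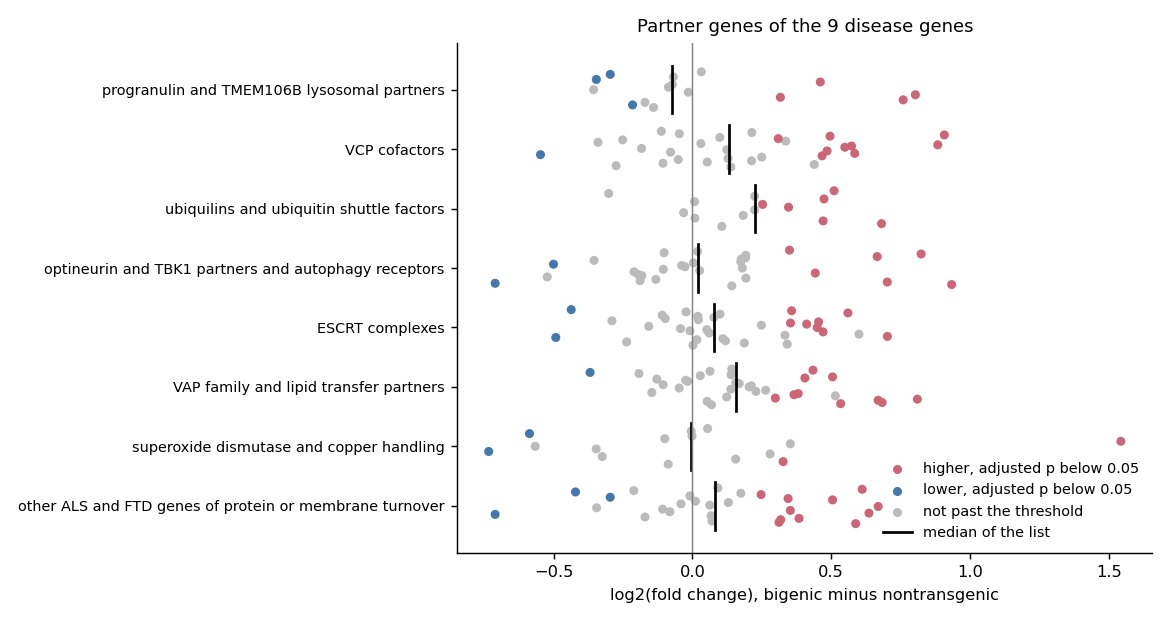
Log2(fold change) of each partner gene tested, bigenic minus nontransgenic (horizontal axis), by list (rows), with called genes in red (higher) and blue (lower), others in grey and the list median as a black line. List medians lie between -0.07 and 0.22, and the point farthest to the right is Prnp at 1.54.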

How the data were processed

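Poly(A)+ RNA of 4 bigenic and 4 nontransgenic right cortices was sequenced (50-base single-end reads). Per the labels and methods, the authors removed adaptors (cutadapt), aligned to mm9 (Bowtie 0.12.7), retained reads with 1 placement and counted them per exon (bedtools). The deposited signal is a whole number for each of 28662 transcripts in each mouse and is called a normalized count here. It is not a raw count, since each column skips or repeats whole numbers at a fixed spacing. The worth of 1 read was estimated from that spacing (8 of 8 simulated columns were recovered within 1 percent). A second table of 10601 genes deposited by the authors holds their DESeq2 log2 fold changes with standard errors, p-values, adjusted p-values and q-values. It was used for gene symbols only.

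Because the values are normalized, limma 3.58.1 in R 4.3.3 (lmFit, eBayes with trend) was run on log2(value + 1) in place of a count test, for the 10588 genes that reached 10 RPM (of the column total) in 1 mouse or more, with Benjamini-Hochberg adjustment over all of them and a threshold of 0.05 ("called"). This scale understates the change of low genes. In values simulated for this comparison, run on 10588 genes, it called 94 of 100 genes changed 1.5-fold, 100 of 100 changed 2-fold and 8 of 10388 unchanged genes. The simulation gave both groups the same spread, with no outlying mouse and few genes changed. These shares therefore do not carry over to the real mice. Among the bigenic mice themselves, the coefficient of variation of the members ran from 7.58% (Vapb) to 41.3% (Sod1). How often a change would be called at the spread of each member was not tested. For ratios within a mouse, an exact permutation test (two-sided) was used. The labels do not say more about how the mice were related, so p-values measure the spread between these samples. Counting error rests on estimated reads and treats reads as independent molecules.

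The 9 genes and the partner and marker lists were chosen with earlier results of these data known. Named genes are the 9, their relatives, Tardbp, up to 3 called genes per direction with the largest log2(fold change) from each partner list, and the 3 most alike genes in pattern for 1 member in each direction. Others are said to be picked after their values were seen. A gene that this rule names is not reported here. Positions, exons and unique 50-base windows come from GENCODE M1 and the same mm9 genome. Alternatives were pseudocounts of 10 and 0.5, other filters and scalings, array weights, no variance trend and leaving out each mouse. Chosen after seeing the data was limma's voom on approximate reads. Other software was scipy 1.17.1, pandas 2.3.3 and numpy 2.4.6 under Python 3.11.15.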

Additional observations from a re-analysis of the deposited data

Results flagged for a closer look

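In groups of 4 mice, a value was marked when its gap to the nearest other mouse took up most of the range of the group (Dixon's ratio). Of 48 groups examined (the 9 genes, 8 further genes and 7 ratios), 9 passed the limit, and chance passes about 1 in 20 independent groups. These groups share the same 8 mice, and the ratios reuse genes already counted. The 9 are therefore not independent and cannot be set against that share. In 8 of the 9 the group was the bigenic one and the mouse was the second bigenic column. It was low for Ubqln2 (ratio of gap to range 0.848), Tmem106b (0.926) and Ubqln1 (0.863), and high for Optn (0.84), Sod1 (0.848) and Ubqln4 (0.899). The within-mouse ratios Ubqln2/Ubqln4 (0.955, low) and Sod1/Sod2 (0.864, high) were marked as well, and these do not depend on how the library was scaled. The remaining one was Chmp2a in nontransgenic mice (0.863), where the fourth column was high. The second bigenic column had the fewest estimated reads of the 8 mice, and the part of depth in its values was not tested.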

How the results depend on the processing

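Ubqln2, Optn and Vapb kept their direction and stayed below an adjusted p of 0.05 in 17 of 17 alternatives, with log2(fold changes) of -1.004 to -0.69, 0.56 to 0.82 and -0.41 to -0.33, and Tbk1 (-0.28 to -0.06), Chmp2b and Tmem106b passed in 0 of 17. Leaving out each mouse in turn gave 3 to 5 members called, with Grn at 0.20 to 0.47, Vcp at -0.47 to -0.23, Sod1 at -0.46 to -0.085, Tmem106b at -0.10 to 0.15 and Chmp2b at 0.02 to 0.14. The most, 5, came without the third bigenic column, where Grn and Vcp passed as well. Of all genes tested, fewer were called in that fit than the 3796 called with all mice. The count over all genes rose, to 4782, only without the second bigenic column, and it fell below 3796 in every other fit that left out a mouse. In the fits that left out a mouse, Chmp2a lay at -0.12 to 0.13 and Tmem106c at -0.025 to 0.069. The partners called lower numbered 7 to 24, beside 1113 to 2126 of all genes tested. The log2 differences in ratio were -0.15 to 0.077 for Tmem106b/Tmem106c and -0.091 to 0.25 for Chmp2b/Chmp2a. Array weights raised the genes called from 3796 to 6455 and the partners called lower from 12 to 36, turned Tmem106b to 0.12 (adjusted p of 0.11) and Chmp2a to -0.15, and gave Sod1 at -0.49 (adjusted p of 1.8e-04). Quantile normalization gave Vcp at -0.40 (adjusted p of 0.047), Chmp2b at -0.0028, Chmp2a at -0.045 and Nsf at 0.040. The voom fit, chosen after seeing the data, turned Chmp2a to -0.0075. The cause of these shifts was not tested. Pseudocounts, filters, the same total and no variance trend changed no member's call. No paired analysis was possible because the columns of the deposited table carry no replicate number that matches the labels. Depth limits the smallest changes that can be seen, since 3 reads are worth 1.94 to 6.20 normalized counts, but every member had at least 200.2 estimated reads in each mouse.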
